A study of Homo sapiens with 12 samples.

Results

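The replication-dependent histone cluster genes were followed in 12 RNA sequencing libraries from 3 established human cancer cell lines. Members were the rows of the count table whose symbol starts with HIST1H, HIST2H, HIST3H or HIST4H and does not end as a pseudogene name does, which gave 75 of 57500 rows. Another 15 rows of these clusters were left out by the name rule. The members comprised 6 genes for the linker histone H1, 17 for H2A, 23 for H2B, 14 for H3 and 15 for H4. By cluster, 55 lie in HIST1 on chromosome 6, 15 in HIST2 and 4 in HIST3 on chromosome 1, and 1 in HIST4 on chromosome 12. GENCODE 29 (GRCh38) holds 74 of them and annotates 70 as protein coding, while HIST2H2BA, HIST2H2BB and HIST2H2BD are transcribed unprocessed pseudogenes there and HIST3H2BA is a unitary pseudogene, although their symbols do not say so.

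The study made 2 comparisons, each in biological triplicate. SW480 comes from a primary colorectal cancer and SW620 from a metastatic site of the same patient, and both were grown untreated in DMEM. The line PEO4 comes from an ovarian cancer and was grown in RPMI 1640 either as control or with TGFbeta, a cytokine of the transforming growth factor family, at 10 ng/mL for 6 days. All 4 groups had 10% FBS with penicillin and streptomycin, and each group is 1 line, so a difference between groups describes these lines. The labels call the replicates biological but do not say how the cultures were separated, so p-values measure the spread between these libraries.

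Histones package DNA into nucleosomes, in which H2A, H2B, H3 and H4 form the core and H1 binds the linker. The clustered genes are expressed mainly in S phase, when new DNA needs histones. Most of their mRNAs are not polyadenylated and end instead in a conserved stem-loop that is bound by SLBP, and NPAT acts as their coactivator at histone locus bodies. The libraries were made from DNase-treated total RNA from which ribosomal RNA had been depleted, a preparation that does not select for poly(A) tails.

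The stem-loop is shown first because it defines these transcripts. It was searched for as the letters GGC, any base, CTTTT, any base, AG, any base and GCC downstream of the stop codon. Of 34 coding members with an annotated 3′ UTR in an unspliced transcript, 30 held it. The stretches below, read from GENCODE 29 transcripts and written as DNA in the sense direction, give members of 4 classes with the 16 bases of the stem-loop in capitals and 5 bases on either side.
HIST1H4I: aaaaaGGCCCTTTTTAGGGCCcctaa
HIST1H4B: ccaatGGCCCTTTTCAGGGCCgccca
HIST1H2AE: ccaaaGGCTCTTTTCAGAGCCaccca
HIST2H2BE: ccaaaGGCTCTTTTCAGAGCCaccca
HIST1H3G: aaaaaGGCTCTTTTAAGAGCCgccta
The printed stretches of HIST1H2AE and HIST2H2BE are the same run of letters, although the genes lie on different chromosomes. The stem-loop began 33, 24, 49, 56 and 35 bases after the stop codon in the order shown.

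The promoters of 4 members that differed between groups in the results below are shown next, chosen among those with a RefSeq promoter entry, which the pseudogenes HIST2H2BA and HIST2H2BB lack. They stand together with HIST1H4D, the H4 gene with the highest mean level per length. Each is the 150 bases before the RefSeq start site in GRCh38.p14, 5′ to 3′ in the direction of the gene. Capitals mark matches, on either strand, to TATAAA (the TATA box), CCAAT, ATTTGCAT (the octamer of H2A and H2B promoters), AAACACA (the H1 box) or GGTCCG (the core of the H4 site).
HIST1H1D: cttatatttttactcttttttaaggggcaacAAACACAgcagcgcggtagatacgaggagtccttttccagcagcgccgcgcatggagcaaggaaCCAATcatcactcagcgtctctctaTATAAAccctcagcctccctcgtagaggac
HIST1H4F: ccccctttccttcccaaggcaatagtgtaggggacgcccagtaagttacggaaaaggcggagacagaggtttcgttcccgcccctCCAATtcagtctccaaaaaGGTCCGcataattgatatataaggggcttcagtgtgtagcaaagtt
HIST1H4I: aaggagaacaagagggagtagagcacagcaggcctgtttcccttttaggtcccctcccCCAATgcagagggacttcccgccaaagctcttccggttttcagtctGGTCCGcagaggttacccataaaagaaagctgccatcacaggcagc
HIST1H4D: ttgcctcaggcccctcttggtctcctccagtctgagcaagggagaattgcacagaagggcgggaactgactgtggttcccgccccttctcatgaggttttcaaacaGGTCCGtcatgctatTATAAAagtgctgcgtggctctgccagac
HIST1H2BM: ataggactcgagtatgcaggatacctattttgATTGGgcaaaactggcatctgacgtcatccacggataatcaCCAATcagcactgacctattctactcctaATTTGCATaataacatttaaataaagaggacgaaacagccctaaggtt
HIST1H1D starts on the minus strand and its window is chr6:26234988-26235137, with the H1 box 119 bases, CCAAT 55 bases and TATAAA 30 bases before the start. HIST1H4F is on the plus strand (chr6:26240243-26240392), as are HIST1H4I (chr6:27139132-27139281) and HIST1H2BM (chr6:27814872-27815021), while HIST1H4D is on the minus strand (chr6:26189113-26189262). The GENCODE 29 transcript of HIST1H4I starts upstream of this window, at position 27138588, so the window lies within its annotated exon. HIST1H4F and HIST1H4I both had GGTCCG 46 bases before the start, and HIST1H4D had it 44 bases before.

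The classes differed in their motifs. Among the 61 members with a RefSeq promoter entry, the H1 box was in the 250 bases before the start of 6 of 6 H1 genes and of no other member, against 4.82% of 35116 promoters. The octamer was in 11 of 14 H2A and 14 of 18 H2B genes and in no H1, H3 or H4 gene, against 1.63% of all. GGTCCG was in 12 of 13 H4 genes and in 1 gene each of H2A, H2B and H3, against 9.43% of all. CCAAT was in every H1, H2A, H2B and H3 gene with an entry but in 3 of 13 H4 genes, against 32.0% of all. TATAAA was in 40 of the 61 members, against 10.7%, counting matches anywhere in the window and on either strand. In HIST1H2BM, HIST1H2BO and HIST1H2BC the only TATAAA lay 219, 214 and 220 bases before the start. The same held for HIST1H2AE (206 bases), HIST1H2BE (189) and HIST4H4 (250). The pair HIST1H2AJ and HIST1H2BM is transcribed in opposite directions with 303 bases between the genes as GENCODE 29 annotates them, 1 of 12 such pairs with gaps of 218 to 356 bases. The GENCODE model of HIST1H2AJ holds the coding sequence alone, and the RefSeq windows of this pair overlap. In 11 of the 12 pairs an H2A gene faces an H2B gene. Where the windows of such a pair overlap, 1 site can count for both genes, so the H2A and H2B motif counts are not independent. The octamer and GGTCCG matches of HIST2H2AC and HIST2H2BE are such shared sites.

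Before the results, some libraries need to be named. Library totals lay between 14531420 and 22028956 counts, and levels are given as CPM, the counts scaled by the library total. A gene with no count in a library could still have had 3 there, a limit of 0.136 to 0.206 CPM that covers counting error only. Replicate 2 of SW480 and replicate 2 of SW620 had the smallest totals (14712953 and 14531420 counts) of all 12 libraries and the largest mitochondrial share of their line (14.3% and 12.8% of counts). Their summed histone level was 0.602 and 0.644 of the mean of the other replicates of their group, and their summed level of 24 S phase replication genes was also the lowest of their group (2190 and 2199 CPM). The part of any of these in the results was not tested, and counts of calls are given with and without these libraries. SW620 replicate 3 also stood apart: over 22 genes of PEO4 that are near 0 in the other SW libraries, its median level was 1.14% of that in PEO4, against 0% to 0.336% over 22 to 30 genes in those libraries. The labels were checked with 5 intestinal and 5 Mullerian or ovarian markers. At least 1 CPM in every library was reached by 2, 3 and 0 intestinal markers in SW480, SW620 and either PEO4 group. For the Mullerian or ovarian markers these numbers were 4, 3 and 5. In SW480 the intestinal markers summed to 37.5 to 66.8 CPM, less than the Mullerian or ovarian ones at 89.2 to 122 CPM. The latter summed to at least 2248 CPM in PEO4, and the intestinal ones to at most 2.35 CPM. The intestinal factor CDX2 stood at 17.7 to 22.4 CPM in the SW lines and at most 0.146 CPM in PEO4, and PAX8, a factor of Mullerian tissue, at 477 to 564 CPM in PEO4 and 33.1 to 73.6 CPM in the SW lines. Markers of leukocytes, fibroblasts and endothelium summed to at most 5.77, 10.8 and 10.46 CPM in any library, each of these highest in SW620.

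Histone cluster genes made up 0.236% to 0.669% of the counts of a library. Their summed level was 4652 ± 1244 CPM in SW480, 5813 ± 1359 CPM in SW620, 3043 ± 158 CPM in PEO4 control and 2688 ± 320 CPM in PEO4 with TGFbeta (SD, n = 3). The SW480 libraries had 5530, 3228 and 5197 CPM and those of SW620 had 6689, 4248 and 6503 CPM. The PEO4 libraries had 2861, 3139 and 3128 CPM without and 2695, 3004 and 2364 CPM with TGFbeta. On this scale every SW library lay above every PEO4 library, while SW480 overlapped SW620 and the PEO4 groups overlapped each other. With TMM scaling computed over all 12 libraries that separation was lost. SW480 replicate 2 then stood at 2773 CPM and SW620 replicate 2 at 3321 CPM. PEO4 control lay at 3291 to 3337 CPM and PEO4 with TGFbeta at 2512 to 3578 CPM. In bulk RNA, fewer cells in S phase and less histone mRNA per cell cannot be told apart.

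Between genes, levels were compared per kilobase of exon (CPM per kb). The 5 classes were summed on this scale in each library. H2B genes had the highest group mean in each of the 4 groups, from 1064 ± 138 CPM per kb in PEO4 with TGFbeta to 2318 ± 548 in SW620, where H3 followed at 2194 ± 579. The linker histone H1 stood at 1034 ± 285 in SW480, 1667 ± 468 in SW620, 812 ± 76.4 in PEO4 control and 709 ± 96.9 with TGFbeta (CPM per kb, SD, n = 3). H4 stood at 1117 ± 309 CPM per kb in SW480, 1438 ± 303 in SW620 and 1003 ± 81.1 in PEO4 control. SW480 overlapped both of the others. SW620 lay above PEO4 control by little, with its lowest library at 1104 and the highest PEO4 control library at 1093. With TMM scaling, whose factor was 1.28 for SW620 replicate 2 and 0.869 to 0.945 for PEO4 control, that separation was lost.

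**Figure D1:**
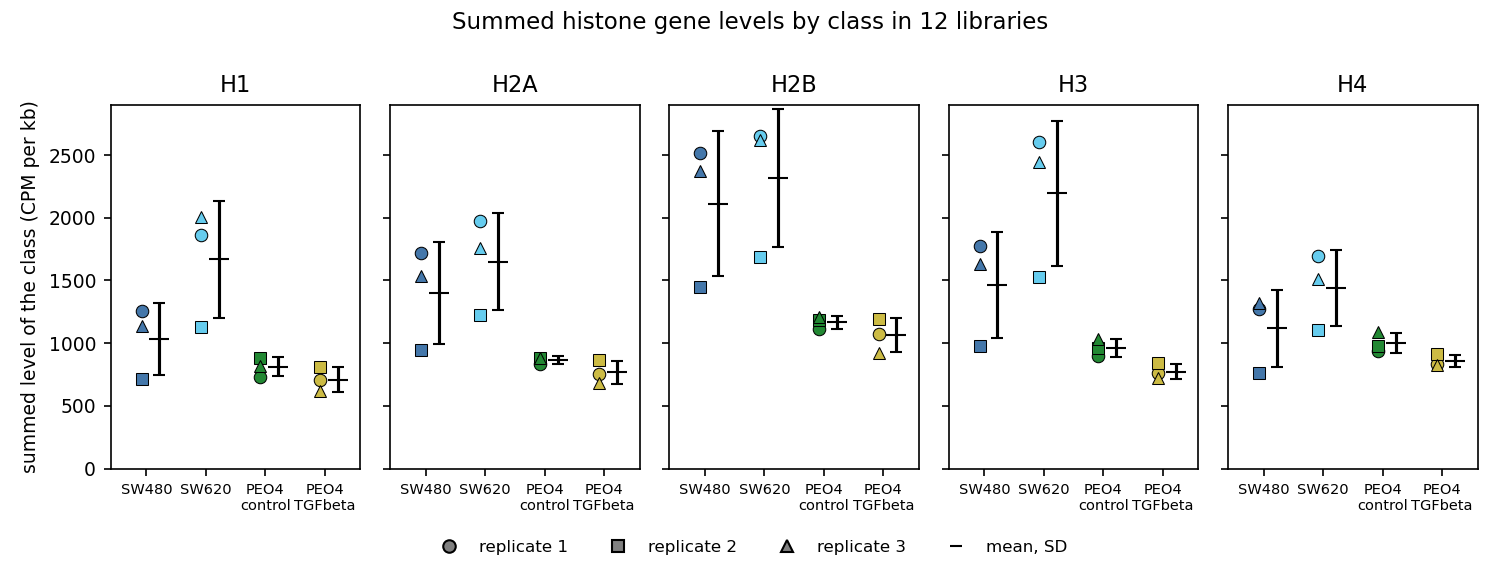
Summed level of the histone genes of each class (vertical axis, CPM per kb of exon) in SW480, SW620, PEO4 control and PEO4 with TGFbeta. Points are libraries, with symbols for replicates 1 to 3, and the bar beside them is the mean with its SD. Replicate 2 (squares) is the lowest SW480 and the lowest SW620 library in all 5 classes.

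Levels also differed within each class. Among H1 genes the highest levels over the 4 groups were those of HIST1H1C (429 CPM per kb, mean of the group means) and HIST1H1B (271). Among H2A genes they were HIST2H2AC (262) and HIST1H2AE (202), and among H2B genes HIST1H2BK (501) and HIST1H2BC (198). HIST1H3B (427) and HIST1H3C (248) led H3, and HIST1H4D (369) and HIST1H4F (199) led H4. HIST1H4F owed this rank to PEO4 alone, with 431 ± 42.9 CPM per kb in the control and 1.92 ± 0.231 in SW480. These ranks depend on the annotated lengths. HIST1H2BK (381 bases) and HIST2H2AC (390) are annotated as coding sequence alone, while HIST2H2BE has 2194 and HIST1H2AC 1668 bases. In CPM, HIST1H2AC had a higher mean than HIST2H2AC in all 4 groups. HIST2H2BE lay above HIST1H2BK in both PEO4 groups (221 against 123 CPM in the control) and below it in both SW lines.

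At the other end, 13 members had at most 10 counts in every library, and 3 had 0 counts in all 12. These 3 were HIST1H2AA, HIST1H3D and HIST1H2AK. HIST1H3D lies wholly within exons of AL031777.3 and HIST1H2AK wholly within HIST1H2BN in GENCODE 29, so a count of 0 there does not show that the gene is silent. The germline genes HIST1H1T (H1t of spermatocytes), HIST1H2AA, HIST1H2BA and HIST3H3 summed to at most 0.952 CPM, and none was tested. The identical coding copies HIST2H4A with HIST2H4B, HIST2H3A with HIST2H3C and HIST2H2AA3 with HIST2H2AA4 stayed at or under 0.817 CPM in every library, and how reads that map to both copies were counted is not stated. In all, 58 members passed the count filter of all 3 fits and 14 passed none.

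For SW620 against SW480, HIST1H1D had the highest log2 fold change of the members tested. Its gene (chr6:26234268-26234933, minus strand, 1 exon, protein coding) encodes the linker histone H1.3. It stood at 10.2, 9.52 and 10.3 CPM in SW480 and at 115, 97.0 and 99.96 CPM in SW620. The 3 SW480 libraries lay together and far below the 3 SW620 libraries, replicate 2 included. The log2 fold change was 3.34 ± 0.19 (SE; 10.1-fold; edgeR quasi-likelihood test, Benjamini-Hochberg adjusted p = 5.52e-06).

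The other H1 genes did not pass the test, with log2 fold changes of 0.54 ± 0.33 for HIST1H1C, 0.63 ± 0.40 for HIST1H1B and 0.45 ± 0.34 for HIST1H1E. The make-up of H1 therefore differed: HIST1H1D was 1.501% ± 0.412 of all H1 counts in SW480 and 9.72% ± 2.70 in SW620 (SD, n = 3). These shares do not depend on the total of a library, but they do depend on the level of the other H1 genes. The summed H1 level was 853, 483 and 771 CPM in SW480 and 1260, 766 and 1360 CPM in SW620. The shares ran from 1.19% to 1.97% in SW480 and from 7.35% to 12.7% in SW620. The highest share of each line was in replicate 2, where the summed H1 level was lowest.

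Of 60 members tested, 5 were higher and 1 was lower in SW620, or 10.0%, against 30.5% of all genes tested (13.5% higher and 17.0% lower). The members that rose beside HIST1H1D encode core histones. HIST1H3C stood at 98.8, 50.0 and 85.8 CPM in SW480 and 226, 139 and 211 CPM in SW620, with a log2 fold change of 1.26 ± 0.33 (adjusted p = 0.0186, edgeR). HIST1H4C (1.22 ± 0.33, adjusted p = 0.0212), HIST1H3A (1.11 ± 0.28, adjusted p = 0.0152) and HIST1H2BB (1.10 ± 0.36, adjusted p = 0.0475) followed in the same edgeR fit. HIST1H2BB lost its call in 8 of 18 alternatives. None of these 4 overlapped between the lines, although replicate 2 was the lowest library of both.

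The 1 member that fell, HIST2H2BA, is annotated as a pseudogene (chr1:121108210-121117257). It had 37, 55 and 35 counts in SW480 and 2, 5 and 3 in SW620, a log2 fold change of -3.71 ± 0.56 (adjusted p = 0.00105, edgeR). All 10 of the H2A genes with a positive and the 3 with a negative fold change missed the threshold.

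How many members passed rested on single libraries. For the fits that follow, the share of all genes called is not given here. Their counts are therefore not read as a result about the members. Without SW620 replicate 1 only HIST1H1D and HIST2H2BA passed, without SW620 replicate 2 there were 12 higher and 1 lower, without SW480 replicate 2 there were 3 higher and 4 lower, and without replicate 2 of both lines 13 higher and 4 lower, an alternative chosen after seeing the data. HIST1H1D and HIST2H2BA were called in every alternative that tested them. The median log2 fold change of the tested members was 0.18, with 41 of 60 positive, against 0.03 over all genes tested, and it was -0.07 without SW480 replicate 2. The values of 11 members did not overlap between the lines, 9 of them higher in SW620, against 46.0% of all genes tested (22.6% higher and 23.4% lower). The authors' deposited table lists 59 members, with 6 higher and 1 lower at an adjusted p under 0.05, and adds HIST1H4A (log2 fold change 0.81, adjusted p = 0.0438) to the same 6 genes.

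**Figure D2:**
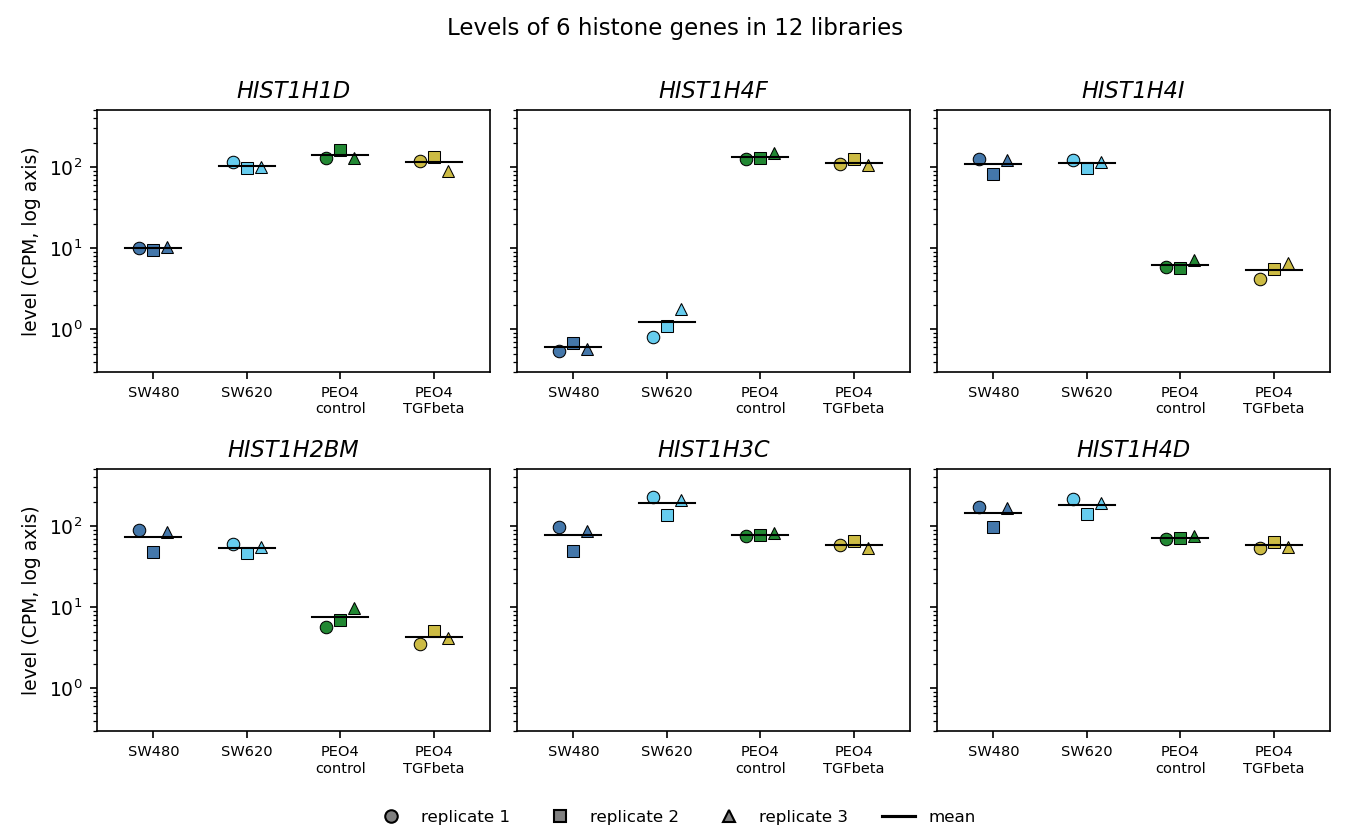
Level (CPM, log axis) of HIST1H1D, HIST1H4F, HIST1H4I, HIST1H2BM, HIST1H3C and HIST1H4D in each of the 12 libraries. Points are libraries with symbols for replicates 1 to 3, and lines are group means. HIST1H1D is low in SW480 alone (9.52 to 10.3 CPM), HIST1H4F is low in both SW lines (0.541 to 1.77 CPM) and HIST1H4I is low in PEO4 (4.14 to 7.04 CPM).

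In PEO4, no member passed the edgeR test for TGFbeta against control, of 59 tested, with 2.26% of all genes passing it (1.27% higher and 0.991% lower). At an unadjusted p under 0.05 there were 15 members, all lower with TGFbeta, against 16.7% of all genes (8.98% higher and 7.68% lower). DESeq2 also called 0 members. Without a count filter edgeR called 2, with a replicate block 11 and with the block and GC correction 16, all lower. The share of all genes called rose with the block as well. The authors' deposited table gives an adjusted p under 0.05 to 3 of the 59 members it lists, all lower: HIST1H3C, HIST1H2AI and HIST1H2BM, against 5.11% of the genes listed there. The smallest adjusted p of the edgeR fit was 0.0835, for HIST1H2AI.

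HIST1H2AI, an H2A gene, stood at 25.5, 26.9 and 28.8 CPM in the control and at 19.8, 21.3 and 18.1 CPM with TGFbeta. The groups did not overlap, and the log2 fold change was -0.44 ± 0.11. HIST1H3C stood at 74.6, 78.0 and 82.7 CPM in the control and 59.1, 65.0 and 53.3 CPM with TGFbeta, also without overlap (log2 fold change -0.39 ± 0.10, adjusted p = 0.0980, edgeR). HIST1H2BM, an H2B gene, stood at 5.68, 7.04 and 9.73 CPM in the control and at 3.56, 5.13 and 4.13 CPM with TGFbeta (log2 fold change -0.78 ± 0.23, adjusted p = 0.131, edgeR). Its divergent partner HIST1H2AJ had 175, 155 and 239 counts in the control against 104, 162 and 152 counts, and its CPM values did not overlap (log2 fold change -0.53 ± 0.19, adjusted p = 0.203, edgeR).

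The fitted values of the members leaned to one side. Of 59, 51 were negative, against 52.3% of all genes tested, and their median log2 fold change was -0.17 against -0.016 for all genes. All 10 tested H3 genes and all 4 tested H1 genes had negative values, as did 12 of 13 H2A, 15 of 20 H2B and 10 of 12 H4 genes. The values of 18 members did not overlap between the groups, 17 of them lower with TGFbeta, against 20.7% of all genes (10.4% higher and 10.3% lower). Members share libraries and cell cycle timing and are not independent. The median was -0.09, with 41 of 59 negative, without TGFbeta replicate 3, whose summed histone level was the lowest of all 12 libraries. The S phase list summed to 799 to 863 CPM in the control and 831 to 894 CPM with TGFbeta. Of its 24 genes 0 passed the test in either direction, against 2.26% of all genes.

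A further comparison set PEO4 control against the mean of SW480 and SW620, to place the members across the untreated lines. Line, tissue and medium cannot be told apart in it, and it shares its libraries with the comparisons above. HIST1H4F, an H4 gene (chr6:26240426-26240737, plus strand, 1 exon, protein coding), stood at 124, 129 and 149 CPM in PEO4 control, and at 108, 124 and 106 CPM with TGFbeta. In SW480 it stood at 0.541, 0.680 and 0.575 CPM and in SW620 at 0.792, 1.10 and 1.77 CPM. The lowest PEO4 library, at 106 CPM, lay far above the highest SW library. The log2 fold change was 7.53 ± 0.22 (185-fold; edgeR, adjusted p = 3.52e-10).

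The SW values of HIST1H4F rest on few counts, 10, 10 and 11 in SW480 and 14, 16 and 39 in SW620. At the median share of PEO4 genes carried in SW620 replicate 3, 33.8 of its 39 counts would correspond to that share, and 0 to 6.64 counts in the other SW libraries. Leaving SW620 replicate 3 out gave a log2 fold change of 7.82. In PEO4 control, HIST1H4F was 32.5% ± 0.902 of all H4 counts, and in SW480 0.106% ± 0.045 (SD, n = 3).

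HIST1H4I, also an H4 gene (chr6:27138588-27139881, plus strand), had the opposite pattern. In SW480 it stood at 124, 81.1 and 122 CPM, in SW620 at 122, 96.8 and 115 CPM, and at 5.93, 5.74 and 7.04 CPM in PEO4 control. The log2 fold change was -3.88 ± 0.24 (14.7-fold lower in PEO4; edgeR, adjusted p = 4.58e-08), and HIST1H4I was 18.0% ± 0.868 of H4 counts in SW480 and 1.51% ± 0.0857 in PEO4 control. Coding sequences of H4 genes are alike, with 84.3% identity between HIST1H4F and its nearest relative HIST1H4I and 90.1% between HIST1H4I and its nearest, HIST1H4J.

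**Figure D3:**
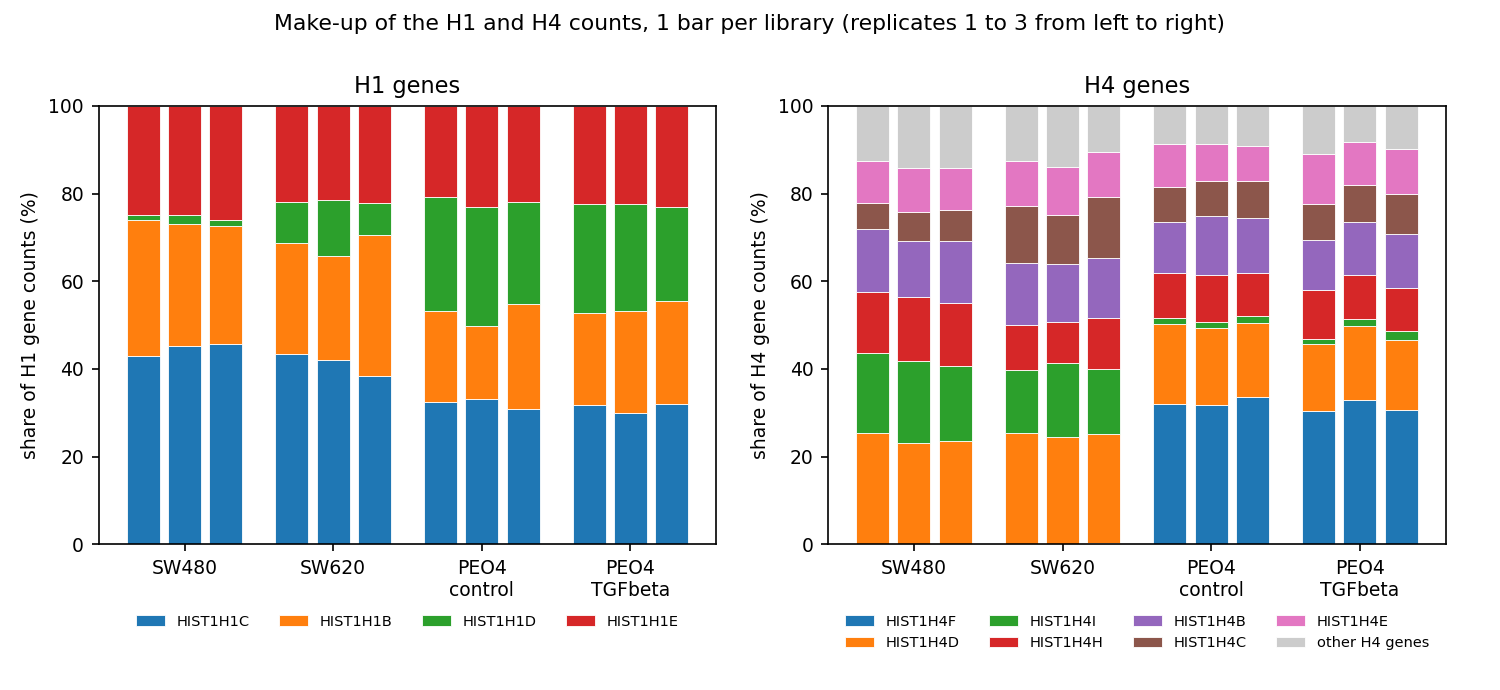
Share of the counts of the H1 genes (left) and of the H4 genes (right) taken by each gene (vertical axis, %), with 1 bar per library. HIST1H4F takes 31.3% to 32.5% of H4 counts in the PEO4 groups and under 1% in the SW lines, and HIST1H1D takes 25.5% of H1 counts in PEO4 control, 9.72% in SW620 and 1.501% in SW480 (group means).

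HIST1H1D and HIST1H4F are neighbours, 5492 bases apart, and both were higher in PEO4 control than in the mean of the SW lines. For HIST1H1D the log2 fold change was 2.39 ± 0.14 (edgeR, adjusted p = 2.58e-08), with 128, 164 and 130 CPM in PEO4 control. That value is an average over unlike lines, since SW620 stood at 97.0 to 115 CPM and SW480 at 9.52 to 10.3 CPM. Between SW620 and SW480, HIST1H4F had a log2 fold change of 1.04 ± 0.52 (adjusted p = 0.168, edgeR), with values that did not overlap.

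Of 61 members tested, 4 were higher and 30 lower in PEO4 control, or 55.7%, against 58.0% of all genes tested (28.9% higher and 29.1% lower). The median log2 fold change of the members was -0.70 and that of all genes -0.08. Scaling by total counts moved the median of all genes to -0.36 and that of the members to -0.95. At an unadjusted p under 0.05 there were 37 members, 33 of them lower, against 62.5% of all genes (31.8% lower). The values of 34 members did not overlap, 31 of them lower in PEO4, against 45.6% of all genes (27.9% lower). Without PEO4 control replicate 1 there were 3 higher and 19 lower, where the share of all genes called is not given.

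Beside HIST1H4F and HIST1H1D, the higher members were HIST2H2BB and HIST1H3E. HIST2H2BB, annotated as a pseudogene, had 138, 118 and 148 counts in PEO4 control and 0 to 3 counts in each SW library (log2 fold change 6.38 ± 0.42, edgeR, adjusted p = 7.61e-08), but 67.9% of its exon bases are shared with AC239798.4 and FCGR1CP. HIST1H3E overlapped between the groups (log2 fold change 0.64 ± 0.20, edgeR, adjusted p = 0.0145).

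The lower members came from every class. HIST1H2BM stood at 89.1, 47.8 and 83.5 CPM in SW480 and 60.5, 46.7 and 55.7 CPM in SW620, against 5.68 to 9.73 CPM in PEO4 control (log2 fold change -2.82 ± 0.27). Its partner HIST1H2AJ was lower by less, at -1.55 ± 0.33. HIST1H4A (-2.28 ± 0.27) and HIST1H2AL (-1.46 ± 0.25) completed the 5 lowest members whose values did not overlap. Of the 10 members with the highest levels per kilobase of their class, 5 fell, by less than these. The 5 were HIST1H1B (-0.93 ± 0.32), HIST1H3B (-0.95 ± 0.31), HIST1H4D (-0.92 ± 0.24), HIST1H1C (-0.85 ± 0.25) and HIST1H2BK (-0.83 ± 0.26). HIST2H2AC, HIST1H2AE, HIST1H2BC and HIST1H3C did not pass the test, at -0.13 ± 0.21, -0.58 ± 0.26, -0.40 ± 0.25 and -0.39 ± 0.25, and HIST1H4F was higher, as above.

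HIST1H4J and HIST1H4K, whose coding sequences are identical, were called lower too (-1.26 ± 0.43 and -1.79 ± 0.44), with overlapping values. Their counts were low together in SW620 replicate 3, at 44 and 71 against 110 to 295 in the other SW620 libraries. The same was seen in replicate 2 of PEO4 with TGFbeta, at 11 and 19 against 34 to 66 in the other libraries of that group.

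Along the HIST1 cluster the members fall into 4 blocks separated by gaps over 200 kb. In the block from HIST1H1A to HIST1H4H (chr6:26017085-26285638), 5 of 28 tested genes were higher in SW620 than in SW480, against 13.5% of all genes, and the median log2 fold change was 0.42. The blocks from HIST1H2BJ to HIST1H2AH and from HIST1H2BL to HIST1H2BO had no called gene in that comparison, with medians of 0.18 over 5 genes and 0.08 over 15 genes. For PEO4 control against the SW lines, these last blocks held 5 of 5 and 13 of 15 lower genes, and the block from HIST1H1A to HIST1H4H held 3 higher and 10 lower of 28, with 28.9% of all genes tested higher and 29.1% lower. The difference between the blocks was not tested.

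**Figure D4:**
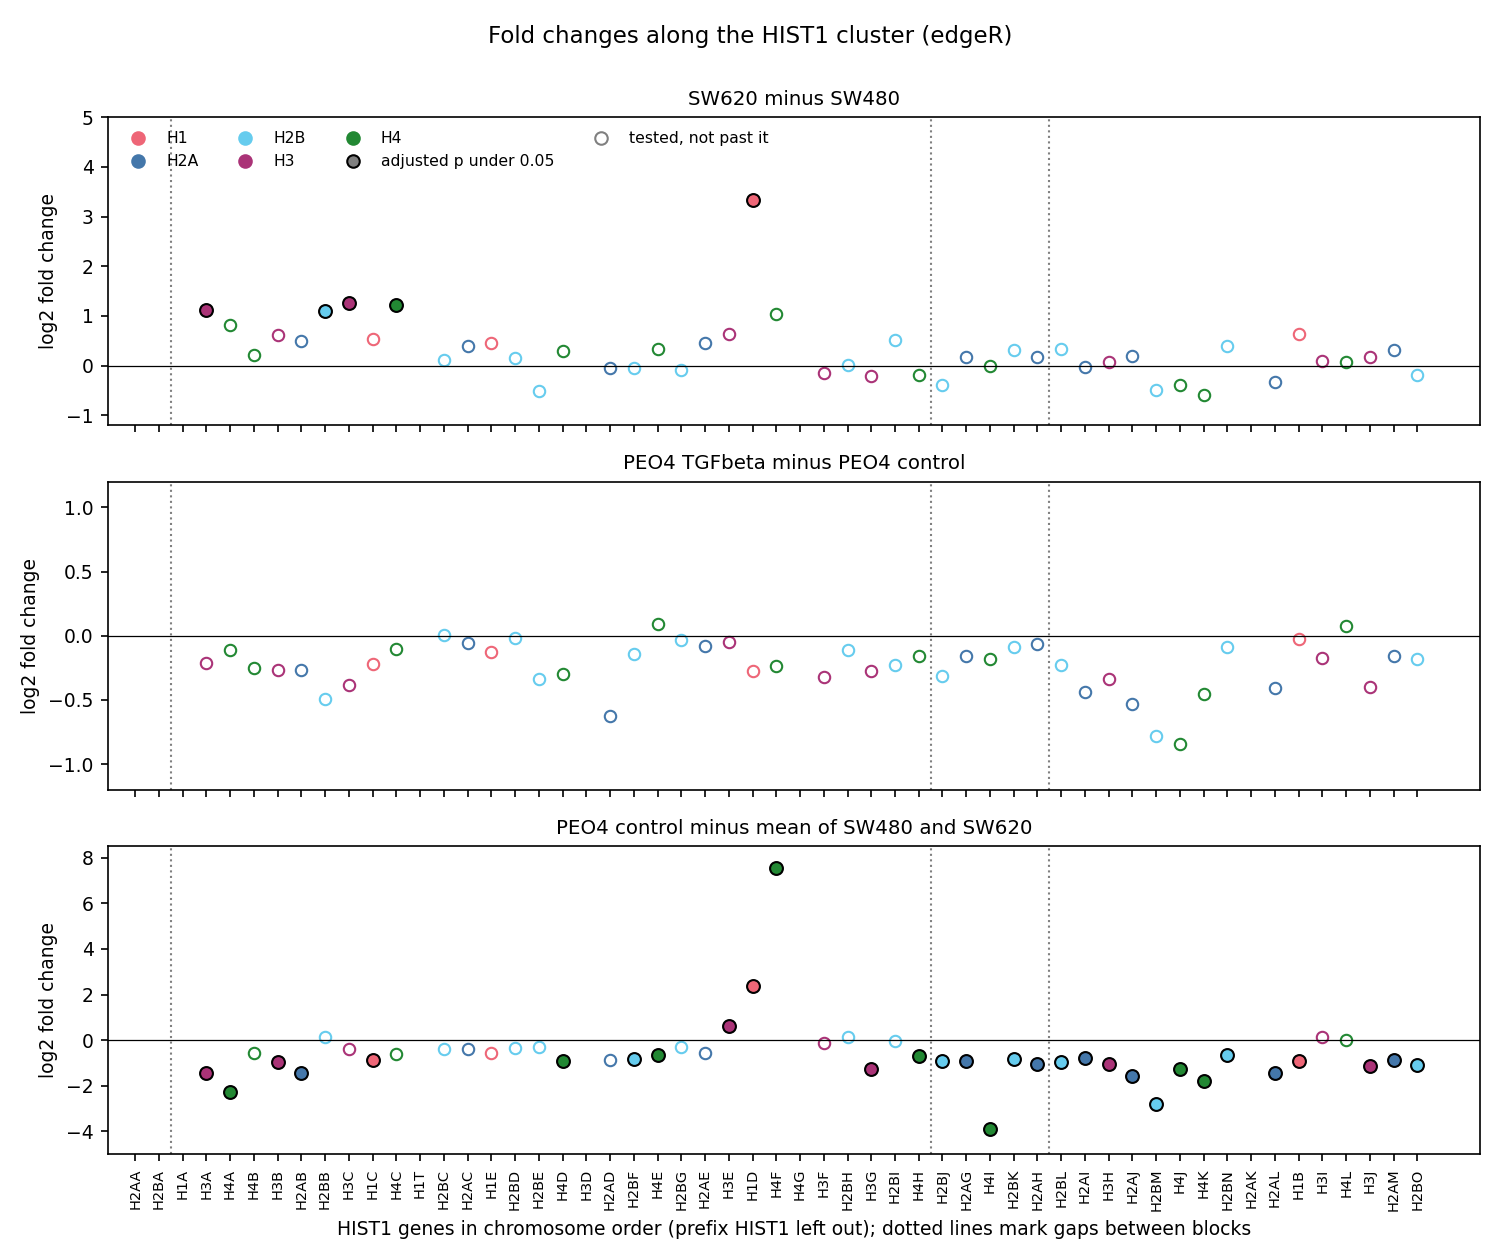
log2 fold change (edgeR, vertical axes on different scales) of the HIST1 genes in chromosome order for the 3 comparisons. Filled points have an adjusted p under 0.05, open points were tested and did not, untested genes have no point, and colours give the class. HIST1H1D and its neighbour HIST1H4F stand out at 2.39 and 7.53 in the lowest panel, and in the middle panel 45 of 48 points lie below 0.

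Genes of histone supply outside the clusters were read from companion lists. Of 11 tested replication-independent histones, which are not made in S phase alone, 1 was higher and 2 were lower in SW620. Of all genes tested, 13.5% were higher and 17.0% lower there. H2AFY2 (macroH2A2) was higher, at 1.63 ± 0.23 (edgeR, adjusted p = 0.000650). CENPA, the centromeric H3, and H2AFJ were lower, at -1.14 ± 0.24 and -0.77 ± 0.18. None of the 11 passed the test with TGFbeta, against 2.26% of all genes. In PEO4 control H3F3B, 1 of the genes for H3.3, was higher at 1.40 ± 0.19. Another 3 were lower, among them H2AFV (-0.69 ± 0.15) and H2AFX (-0.66 ± 0.21). Of all genes tested, 28.9% were higher and 29.1% lower in PEO4 control than in the SW lines.

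Of 18 genes for transcription and processing of histone mRNA, CCNE1, which encodes the cyclin E that activates NPAT through CDK2, was lower in SW620 (-1.09 ± 0.24) and ERI1, an exonuclease that trims the stem-loop end, was higher (0.49 ± 0.16), a call lost in 10 of 18 alternatives. Of all genes tested, 13.5% were higher and 17.0% lower in SW620, and 28.9% and 29.1% in PEO4 control. In PEO4 control 6 genes of this list were higher and 5 lower. SLBP was among the higher, at 79.5, 78.7 and 79.97 CPM against 38.1 to 52.1 CPM in the SW lines (log2 fold change 1.00 ± 0.16, edgeR, adjusted p = 0.000182), while CBX3 (-1.28 ± 0.16) and CDK2 (-1.22 ± 0.19) were lower. Of 18 chaperones and deposition factors, CHAF1B, a subunit of chromatin assembly factor 1, was the 1 gene called between the SW lines, lower at -0.94 ± 0.19. In PEO4 control 4 were higher and 6 lower, the latter with both CHAF1A (-1.37 ± 0.12) and CHAF1B (-0.93 ± 0.16).

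Of 24 S phase replication genes, 0 were higher and 22 lower in PEO4 control than in the SW lines. Of all genes tested, 28.9% were higher and 29.1% lower. The median log2 fold change of the list was -1.23. PCNA, the sliding clamp, fell the most, at 22.7, 19.6 and 26.0 CPM against 98.8 to 243 CPM (-2.71 ± 0.30, edgeR, adjusted p = 8.88e-06), followed by GINS2 (-2.21 ± 0.24) and MCM7 (-2.01 ± 0.21) of the replicative helicase. Between SW620 and SW480 0 genes of this list were higher and 3 lower, against 13.5% and 17.0% of all genes. The lower ones were CDC6 (-1.10 ± 0.18), RRM2 (-1.06 ± 0.24) and E2F1 (-0.99 ± 0.16). Of the 8 members known to make polyadenylated transcripts as well, none was called between the SW lines or with TGFbeta, where 30.5% and 2.26% of all genes were called, and 4 were lower in PEO4 control, against 29.1% of all genes.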

How the data were processed

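RNA-seq counts for 57500 Ensembl genes in 12 libraries (4 groups of 3) were used as deposited by the authors, who, per the submitters' processing notes, used Trimmomatic 0.36, STAR 2.5.2b, featureCounts of Subread 1.5.2 and DESeq2, with GRCh38. The annotation, strand setting and treatment of multiply mapped reads are not given in the sources used here, so antisense, overlapping and near-identical genes are uncertain. The authors' deposited tables give log2 fold changes and p-values, per the file headers, and served for comparison of calls only.

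The counts were fitted per comparison with edgeR 4.0.16 in R 4.3.3 (filterByExpr, TMM, glmQLFit, glmQLFTest, two-sided, Benjamini-Hochberg adjustment over all genes tested, threshold 0.05), on 6, 6 and 9 libraries. The standard error is the log2 fold change over the square root of F. CPM uses library totals, and lengths are union exons of GENCODE 29. "Not overlapping" means that all CPM values of one side lay beyond those of the other. Depth was 14531420 to 22028956 counts per library. An exact two-sided permutation test of 3 against 3 cannot go below 0.1, so no such test is given. The fits were tested on simulated counts with the same spread for every gene and no replicate effect. That test does not cover the replicate differences described above.

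The members and companion lists were chosen with earlier results of these data known. Named members are, per comparison, the up to 5 highest and 5 lowest called ones with non-overlapping values, the 2 highest per class by level, those whose annotation had to be stated, and up to 3 called genes per companion list. HIST1H2AI, HIST1H3E, HIST1H4J and HIST1H4K, and in the TGFbeta comparison HIST1H3C, HIST1H2BM and HIST1H2AJ, were named after their values were seen. Alternatives were DESeq2 1.42.0, scaling by total counts, upper quartile or RLE, a fit on unfiltered genes, a minimum of 10 counts per library, 1 model over all 12 libraries, a replicate block, GC correction (alone and with the block), removal of mitochondrial genes, and leaving out each library. Promoter windows come from RefSeq (GRCh38.p14).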

Additional observations from a re-analysis of the deposited data

How the results depend on the processing

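Of the 6 members called between SW620 and SW480, HIST1H1D and HIST2H2BA kept their call in every alternative that tested them, and HIST1H3A, HIST1H3C, HIST1H4C and HIST1H2BB lost it in 1, 1, 3 and 8 of 18. Of 13 called members with non-overlapping values followed in the comparison of PEO4 control with the SW lines, 9 kept their call throughout, and none of these members changed sign. HIST1H3E, HIST1H4J and HIST1H4K were not followed across alternatives. Leaving out 1 library gave 2 to 13 called members for SW620 against SW480, 0 for TGFbeta and 22 to 43 for PEO4 control against the SW lines, and leaving out the replicate 2 libraries of every group, chosen after seeing the data, gave 17, 0 and 49. Without a count filter 2 members were called for TGFbeta, both lower. For the fits that left out libraries or the filter, the share of all genes called is not given. Deviations of same-numbered libraries had correlations of 0.016, 0.67 and 0.57 in the SW lines and 0.29, -0.14 and 0.48 in PEO4. Those of differently numbered libraries ran from -0.63 to 0.27 in the SW lines and from -0.49 to 0.24 in PEO4. The labels state no pairing, and the fits behind the calls above left the replicate number out. A replicate effect shared between groups was therefore not modelled in them. With the replicate block 28 members were called for SW620 against SW480, 11 for TGFbeta (all lower) and 38 for PEO4 control, and with the block and GC correction together 29, 16 (all lower) and 37. The genome-wide share called rose as well with the block, to 50.9% for SW620 against SW480 and 11.03% for TGFbeta. Of 100 alternative values of the summed class levels, 91 moved by less than 1 SD, and the other 9 were PEO4 levels under TMM-scaled totals or the longest transcript as length. For the 13 members with at most 10 counts in every library no statement on differences is made.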
